A study of Mus musculus with 13 samples.

Results

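Phase II conjugation enzymes attach a polar group to drugs, hormones, bile pigments or lipid peroxidation products. The genes described here are the mouse genes of 4 such enzyme classes. These are cytosolic and microsomal glutathione transferases (GST and MGST), UDP-glycosyltransferases (UGT), cytosolic sulfotransferases (SULT) and N-acetyltransferases (NAT). The genes were chosen by symbol (Gst, Mgst, Ugt1 to Ugt3, Sult and Nat genes) together with a minimum of 10 counts in at least 2 libraries. The symbols matched 60 genes, and 51 of the 27141 genes in the table met the minimum: 21 GST, 3 MGST, 13 UGT, 12 SULT and 2 NAT genes. The other 9 (Gstt4, Nat8, Sult2a3, Sult3a1, Sult3a2, Ugt1a8, Ugt1a9, Ugt2b38 and Ugt3a1) stayed under it.

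The study asked whether a chemical cocktail can restore function to damaged hepatocytes (dHeps), which were isolated by collagenase perfusion from the livers of mice with chronic injury caused by carbon tetrachloride. The labels give the genotype as WT and no age, and the study describes its injured mice as being of C57BL/6 background. All cells were kept for 16 days in a serum-free hepatocyte maintenance medium, with the solvent DMSO alone, with all 5 compounds (5C), or with 4 of them. The compounds were GSK429286A (G), which inhibits the kinase ROCK, CID755673 (C), which inhibits protein kinase D, ETC-1002 (E), which activates AMPK, forskolin (F), an activator of adenylate cyclase, and the glycoside Salidroside (S) from a plant. A name such as 5C-G stands for the cocktail without GSK429286A. Thus every group shared the injury, the isolation and the medium, and each removal group had 4 compounds in common with 5C. Each group had 2 libraries, called A and B, except 5C-S, which had 1 and so no replicate. The study's methods describe replicates in general as biologically separate, but the labels do not tie these libraries to animals or cultures, so p-values measure the spread between these libraries.

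In the liver, glutathione transferases couple glutathione to electrophiles, and most UGTs couple glucuronic acid to bilirubin, steroids, bile acids and drugs. Sulfotransferases move a sulfate group from the donor PAPS to steroids, thyroid hormones and phenols. The conjugates leave the hepatocyte through export pumps into bile or blood. High levels of many of these genes are a feature of mature hepatocytes, and transcription factors such as HNF4A, NRF2, AHR and PXR are known regulators of members of the group.

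Total counts per library ranged from 30195867 to 45491932, and the 51 genes took 0.207% to 0.401% of them. Levels are given in FPKM (counts scaled to gene length and library total) and changes as log2 fold changes of the counts with their standard error (SE). Comparisons of FPKM between genes are rough, because the length used can differ from that of the canonical transcript. For Gsta3 it was 4351 bases against 1464 for that transcript, and for Gsta4 1268 against 2109. A gene was called when its Benjamini-Hochberg adjusted p over 19884 genes, from the quasi-likelihood test of edgeR, was under 0.05 and its log2 fold change was beyond 1 in either direction. All 51 genes entered this test, and 40 of them had 10 counts or more in all 13 libraries. The hepatocyte markers (8 genes, among them Alb and Hnf4a) summed to between 3271 FPKM in a 5C-E library and 21880 FPKM in a 5C-F library, so the labelled cell type was present in each. Macrophage markers (10 genes) summed to 2327 to 2352 FPKM in DMSO and 272 to 290.4 FPKM in 5C. In such bulk samples, fewer cells of a type and less RNA per cell cannot be told apart.

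Glutathione transferases were the most abundant class. Gstm1, a mu-class enzyme, had the highest mean level in 5C (412 and 347 FPKM) and in every removal group, while in DMSO the highest was Mgst1 (168 and 168 FPKM), a microsomal glutathione transferase. In DMSO, 4 of the 51 genes averaged at least 100 FPKM and 16 averaged under 1 FPKM. In 5C, these numbers were 7 and 9. Mgst1 lay between 202 and 264 FPKM in the 10 libraries of 5C and the removal groups with 2 libraries and was called in none of the 5 main comparisons with a test.

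The order of the other leading genes in 5C was Sult1a1 (188 and 198 FPKM), which sulfates phenols, then Gstm3 (156 and 155 FPKM), Gsta4 (155 and 153 FPKM), which acts on the lipid peroxidation product 4-hydroxynonenal, Sult1d1 (127.7 and 131 FPKM) and Gstp1 (116 and 118 FPKM). The levels of Gstm3 and Gsta4 were close, and their order was not tested. The leading UGT gene in 5C by FPKM was Ugt2b34 (26.4 and 27.3 FPKM), a rank that depends on how reads on the shared Ugt1a exons were assigned. Nat2 (10.3 and 9.67 FPKM) far exceeded Nat1 (1.28 and 0.677 FPKM). At the other end, Sult2a8, Ugt2b1 and Ugt2b37 did not reach 10 counts in every group.

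Some of these genes share sequence, so their levels are uncertain individually. The Ugt1a genes use common last exons, and only 11.6% of the exonic bases of Ugt1a1 and 22.8% of those of Ugt1a7c lay in no other annotated gene. The FPKM of Ugt1a7c rest on a length of 4226 bases, and 975 of its exonic bases lay in no other gene. If reads on shared exons were left out, the levels of Ugt1a genes and the UGT sums would be understated. Of all 100-base stretches in the Gstp1 transcript, 47.3% were found exactly in another of the 51 genes, mostly Gstp2. The corresponding share was 19.6% for Gsta1 (with Gsta2), 11.5% for Sult2a1 (with Sult2a2), 3.8% for Gstm3 and 0% for Gsta3, Sult1e1 and Sult1d1. How multiply mapped reads were handled is not given in the sources used here.

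For 42 of the 51 genes, RefSeq promoter windows of assembly GRCm38.p6 were at hand, each from 250 bases before to 50 bases after a transcription start. They were searched on both strands for short motifs, of which 1 is reported here. TGACNNNGC, the core of the antioxidant response element bound by NRF2, was found in 4 of 42 genes (9.52%), Gsta3, Gstm5, Gstm7 and Mgst1, against 13.99% of 27025 genes in the table. A match describes letters only, and the absence of one says nothing about the factor.

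The 150 bases before the start are shown for Gsta3, which carries the antioxidant core, for Gstm3, which had the largest change of the genes called in 5C against DMSO and does not hold that core, and for Ugt1a1, which was called in all 5 tested comparisons with 5C and does not hold it either. Capitals mark TGACNNNGC. The positions in GRCm38.p6 are chr1:21240435-21240584 on the plus strand for Gsta3, chr3:107969175-107969324 on the minus strand for Gstm3 and chr1:88211809-88211958 on the plus strand for Ugt1a1. The motif starts 121 bases before the start in Gsta3.
Gsta3: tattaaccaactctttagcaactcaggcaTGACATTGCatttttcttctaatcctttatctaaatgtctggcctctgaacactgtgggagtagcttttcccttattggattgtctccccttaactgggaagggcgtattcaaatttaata
Gstm3: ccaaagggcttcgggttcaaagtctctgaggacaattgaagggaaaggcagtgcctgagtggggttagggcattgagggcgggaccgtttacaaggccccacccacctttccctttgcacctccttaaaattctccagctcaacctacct
Ugt1a1: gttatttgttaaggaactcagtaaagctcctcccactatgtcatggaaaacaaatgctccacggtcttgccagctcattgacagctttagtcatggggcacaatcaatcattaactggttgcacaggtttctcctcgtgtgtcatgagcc

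The first comparison asks what the whole cocktail changed against its solvent. In 5C, 10 of the 51 genes were higher than in DMSO and 0 were lower (19.6% called, against 4.55% of all genes tested in both directions, 1.66% higher and 2.89% lower). Of the 51, 44 had a positive log2 fold change, with a median of 0.60 against 0.01 over all genes tested. The called genes were 4 glutathione transferases (Gstm3, Gsta2, Gsta1 and Gstm1) and 6 UGTs (Ugt2b5, Ugt2b35, Ugt2a3, Ugt2b36, Ugt2b34 and Ugt1a1). No SULT, MGST or NAT gene was called, and without DMSO A 6 genes were.

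Gstm3 went from 2.77 and 1.39 FPKM in the DMSO libraries to 156 and 155 FPKM in the 5C libraries, 6.13 ± 0.38 higher on the log2 scale (SE, edgeR adjusted p = 1.82e-08). It lies on chromosome 3 (GRCm39, chr3:107871012-107881730, minus strand) in a cluster with the other Gstm genes. Gstm1 of this cluster had 144 and 125 FPKM in DMSO and 412 and 347 FPKM in 5C (log2 fold change 1.43 ± 0.22 SE, edgeR adjusted p = 0.000306). Gstm7, which also lies there, had 6.88 and 7.15 FPKM in DMSO and 8.15 and 6.77 FPKM in 5C, and its libraries overlapped. Thus the genes of a single cluster differed in size of change, and Gstm3 moved from 0.43% and 0.23% of the summed GST level in DMSO to 12.75% and 13.46% in 5C.

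**Figure D1:**
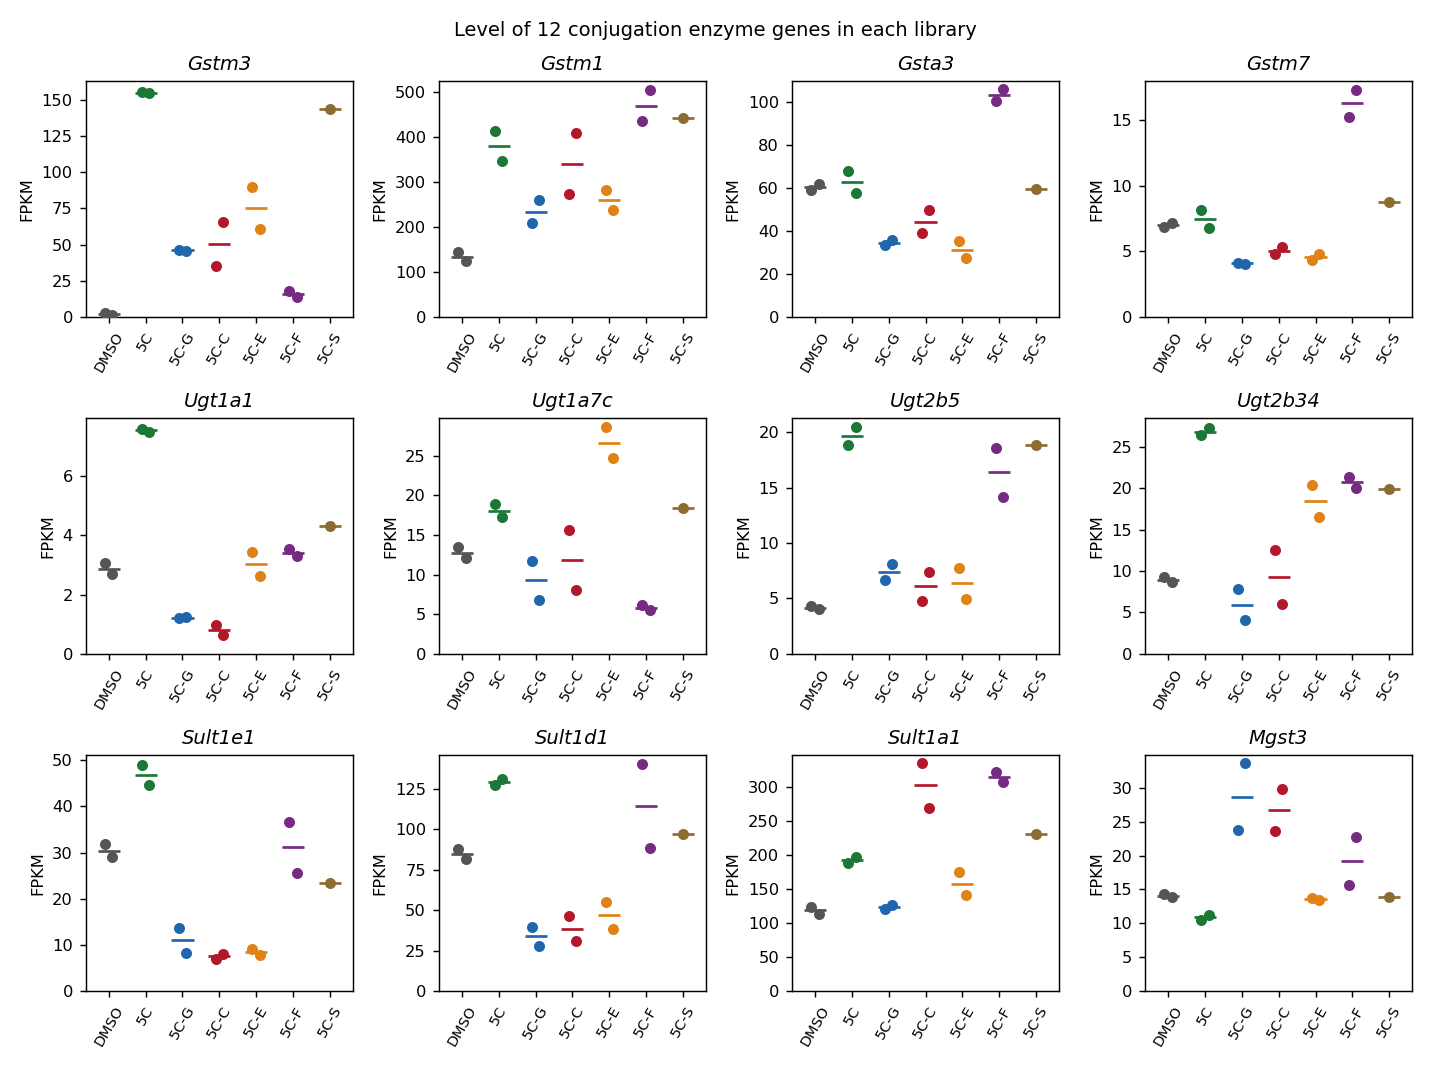
Level in FPKM (vertical axis, from 0) of 12 conjugation enzyme genes in each of 13 libraries, by group. Points are libraries and bars are group means. Gstm3 is near 0 in DMSO and at 156 and 155 FPKM in 5C, and Ugt1a1 is highest in 5C.

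The alpha-class genes Gsta1 and Gsta2, whose enzymes act on lipid hydroperoxides, started low. Gsta2 had 0.186 and 0.572 FPKM in DMSO and 2.89 and 3.10 FPKM in 5C (log2 fold change 2.92, edgeR adjusted p = 0.00431). Gsta1 had 0.2001 and 1.48 FPKM in DMSO and 2.40 and 7.39 FPKM in 5C, a wide spread within both groups. Gsta1 was no longer called without DMSO A or 5C B or by limma on log2(FPKM + 1), nor Gsta2 without DMSO A. The far more abundant Gsta3 was not called, with 59.1 and 61.7 FPKM in DMSO and 67.6 and 57.6 FPKM in 5C.

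Among the UGTs, Ugt2b5 had 4.29 and 4.02 FPKM in DMSO and 18.9 and 20.4 FPKM in 5C (log2 fold change 2.17 ± 0.29 SE, edgeR adjusted p = 6.81e-05). Ugt2b34, Ugt2b35 and Ugt2b36, of the same steroid and drug glucuronidating family on chromosome 5, rose by 1.51, 1.96 and 1.58 on the log2 scale. These 4 genes had libraries that did not overlap between the groups, and they were called under all 10 alternative analyses run. Ugt1a1, the enzyme that glucuronidates bilirubin (GRCm39, chr1:88139679-88147724, plus strand), had 3.06 and 2.68 FPKM in DMSO and 7.61 and 7.48 FPKM in 5C (log2 fold change 1.32 ± 0.29 SE, edgeR adjusted p = 0.00796). Its call was lost when any 1 of the 4 libraries was left out, with log2 fold changes from 1.14 to 1.43 over the alternatives. Ugt2a3 had 0.658 and 0.758 FPKM in DMSO and 3.12 and 1.66 FPKM in 5C, and its call was lost without DMSO A, DMSO B or 5C A, with an offset for GC content and gene length, and by limma on log2(FPKM + 1).

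No sulfotransferase was called. The largest log2 fold changes were those of Sult1c2 (2.56 ± 0.92 SE, edgeR adjusted p = 0.132), Sult2a2 (2.54 ± 0.98 SE, edgeR adjusted p = 0.168) and Sult4a1 (1.69 ± 0.50 SE, edgeR adjusted p = 0.0562), at low levels. Sult1c2 had 0.178 and 0.591 FPKM in DMSO and 2.55 and 2.19 FPKM in 5C, Sult2a2 0 and 1.39 against 4.50 and 3.87 FPKM, and Sult4a1 0.261 and 0.383 against 1.49 and 0.700 FPKM, so that in each both 5C libraries lay above both DMSO libraries. Among the abundant members, Sult1a1 went from 124 and 114 FPKM in DMSO to 188 and 198 FPKM in 5C, with a log2 fold change of 0.62 ± 0.17 (SE) and an edgeR adjusted p of 0.0387, under the fold threshold. Sult1e1, which sulfates estrogen (GRCm39, chr5:87723828-87739461, minus strand), had 31.8 and 29.0 FPKM in DMSO and 49.0 and 44.6 FPKM in 5C, and Sult1d1, which sulfates catecholamines, 87.8 and 81.4 against 127.7 and 131 FPKM. In Sult1a1, Sult1e1 and Sult1d1 both 5C libraries lay above both DMSO libraries. With 2 libraries against 2, an exact permutation test cannot go below p = 0.333, so such separation is no evidence of a rise. Its share over all genes tested is not given here.

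Summed over a class, the 21 GST genes had 645 and 594 FPKM in DMSO and 1220 and 1151 FPKM in 5C, 1.91-fold more on average. The 13 UGT genes summed to 44.2 and 41.2 FPKM in DMSO and 109 and 110.1 FPKM in 5C (2.57-fold), and the 12 SULT genes to 247 and 229.8 against 379 and 386 FPKM (1.61-fold). The sums of these classes did not overlap between DMSO and 5C. An exact permutation test of 2 libraries against 2 cannot go below p = 0.333, so sums are given with no test. The ratio for MGST, 1.30-fold, rests on Mgst1.

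**Figure D2:**
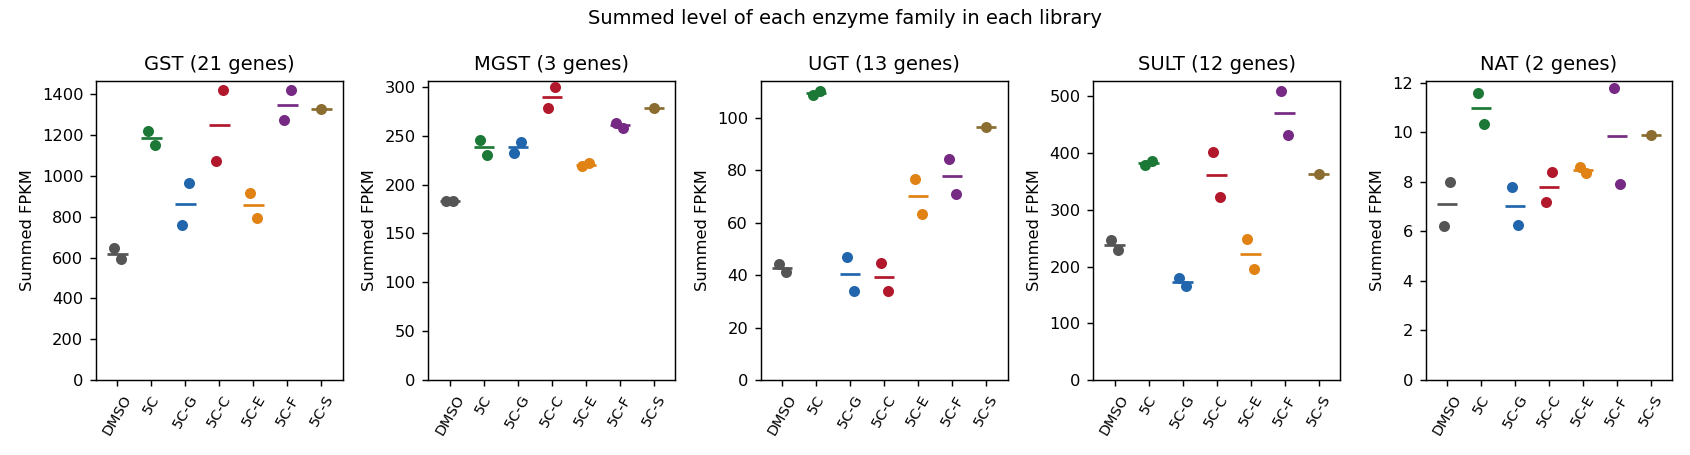
Summed FPKM (vertical axis, from 0) of the genes of each class in each of 13 libraries, by group. Points are libraries and bars are group means. UGT sums are 109 and 110.1 FPKM in 5C and at most 46.8 FPKM in DMSO, 5C-G and 5C-C.

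Markers of other cells differed between the same groups. In 5C against DMSO, 8 of the 10 macrophage markers were lower and 0 higher, and Clec4f and Timd4 averaged under 1 FPKM in every group. Of 8 hepatocyte markers 1 (Tat) was lower. Alb had a log2 fold change of -0.03. The hepatocyte marker sum was 10650 to 11850 FPKM in DMSO and 11050 to 11120 FPKM in 5C. Of 10 stellate cell and fibroblast markers Lrat was higher and Des and Thy1 were lower (1025 to 1039 FPKM in DMSO, 1240 to 1259 FPKM in 5C, Lrat under 1 FPKM in both), and of 6 cholangiocyte markers Epcam was higher, while their sum was 2598 to 2958 FPKM in DMSO and 1639 to 1977 FPKM in 5C. The part of these differences in the conjugation gene results was not tested.

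Leaving out GSK429286A asks which levels depended on ROCK inhibition. In 5C-G against 5C, 1 of the 51 genes was higher and 11 were lower (23.5% called, against 13.1% of all genes tested, 7.47% higher and 5.64% lower). The median log2 fold change was -0.64, against -0.01 over all genes. The lower genes were 6 UGTs (Ugt1a1, Ugt1a5, Ugt2b34, Ugt2b35, Ugt3a2 and Ugt2b5), 4 SULTs (Sult2a1, Sult1e1, Sult1d1 and Sult1b1) and Gstm3, and the higher gene was Mgst3.

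Ugt1a1 had 1.20 and 1.24 FPKM in 5C-G, under both 5C libraries and also under both DMSO libraries (log2 fold change against 5C -2.49 ± 0.30 SE, edgeR adjusted p = 2.35e-05). Sult1e1 had 13.7 and 8.18 FPKM (-1.98 ± 0.24 SE, edgeR adjusted p = 2.3e-05), and Sult1d1 39.7 and 28.0 FPKM (-1.81 ± 0.25 SE, edgeR adjusted p = 7.37e-05). These 3 genes were lower than in DMSO too, by -1.17, -1.43 and -1.27 on the log2 scale, and were called there.
Ugt2b34 had 7.84 and 4.05 FPKM (-2.07 ± 0.28 SE against 5C), under both DMSO libraries (9.29 and 8.65 FPKM), a difference from DMSO of -0.56 on the log2 scale that was not called. Gstm3, at 46.6 and 45.4 FPKM, fell by 1.62 on the log2 scale against 5C, but remained 4.51 above DMSO (edgeR adjusted p = 1.69e-06). Mgst3, a microsomal enzyme with glutathione peroxidase activity, rose from 10.5 and 11.2 FPKM in 5C to 23.8 and 33.7 FPKM (1.55 ± 0.25 SE, edgeR adjusted p = 0.000324).

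Of these 12 calls, 6 held under all alternatives. Those of Ugt1a5, Ugt3a2, Sult2a1 and Sult1b1 depended on single libraries. Ugt1a5 had 3.87 and 3.16 FPKM in 5C and 1.26 and 0.0994 FPKM in 5C-G, so its 5C-G libraries were far apart. Its call was lost without 5C A, 5C B or 5C-G B, and when only the libraries of the 2 groups were fitted. The call for Sult2a1, which sulfates bile acids and steroids and had 2.60 and 2.11 FPKM in 5C and 0.488 and 0.322 FPKM in 5C-G, was lost without any 1 of the 4 libraries. That for Ugt3a2 was lost without 5C B, 5C-G A or 5C-G B, and that for Sult1b1 without 5C A, 5C B or 5C-G B. Both were lost by limma on log2(FPKM + 1), and that for Sult1b1 also when only the libraries of the 2 groups were fitted. With an offset for GC content and gene length, Ugt2b5, Sult1d1, Sult1b1 and Sult2a1 were not called, with Sult1d1 at -0.89 and Ugt2b5 at -0.63 on the log2 scale.

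In 5C-G, 8 of 10 macrophage markers were higher than in 5C and 0 lower (summed level 2789 to 4361 FPKM), and of the 8 hepatocyte markers 4 were lower (Hnf4a, Fgb, Tat and Apob) and Apoa1 was higher (6533 to 7865 FPKM). The hepatocyte markers had a median log2 fold change of -1.02, and Alb one of -0.99. Des and Thy1 of the stellate cell and fibroblast markers were higher and Lrat and Reln lower (1217 to 1364 FPKM), Sox9 and Epcam of the cholangiocyte markers were lower (1982 to 2437 FPKM), and so were the endothelial markers Tek and Kdr (3.35 to 6.12 FPKM for the list). The part of these differences in the results above was not tested.

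Leaving out CID755673, the protein kinase D inhibitor, gave the largest number of calls among the 51 genes of the 4 tested removals. With the offset for GC content and length it did not hold this rank alone. In 5C-C against 5C, 4 of the 51 genes were higher and 13 lower (33.3% called, against 20.2% of all genes tested, 9.65% higher and 10.5% lower). The median was -0.23 on the log2 scale. All 13 UGT genes had a negative log2 fold change (of the 10 named ones, 9 did with the GC and length offset) and 9 were called lower, while among the 21 GST genes 2 were higher, 1 was lower, and the median was 0.03. The 12 named GST genes had a median of -0.12, and of -0.51 with that offset, so no direction is given for this class, and a difference between the classes was not tested.

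Ugt1a1 had 0.981 and 0.621 FPKM in 5C-C (log2 fold change against 5C -3.09 ± 0.31 SE, edgeR adjusted p = 6.9e-06). Ugt1a5 had 0.105 and 0.239 FPKM (-4.12 ± 0.78 SE, edgeR adjusted p = 0.000696), and Ugt1a6b 0.916 and 0.258 FPKM (-1.94 ± 0.49 SE), the last not called without 5C A or 5C-C B. Ugt1a7c, with the same last exons, had 15.6 and 8.07 FPKM against 18.9 and 17.3 FPKM in 5C and was not called. Ugt3a2 had 0.192 and 0.0849 FPKM against 0.932 and 1.67 FPKM in 5C (-3.10 ± 0.55 SE), and its call was lost with limma on log2(FPKM + 1), a scale that understates the change of low genes. Ugt2b5, Ugt2b34, Ugt2b35, Ugt2b36 and Ugt2a3 fell by 1.52, 1.38, 1.56, 1.33 and 1.30 on the log2 scale.

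**Figure D3:**
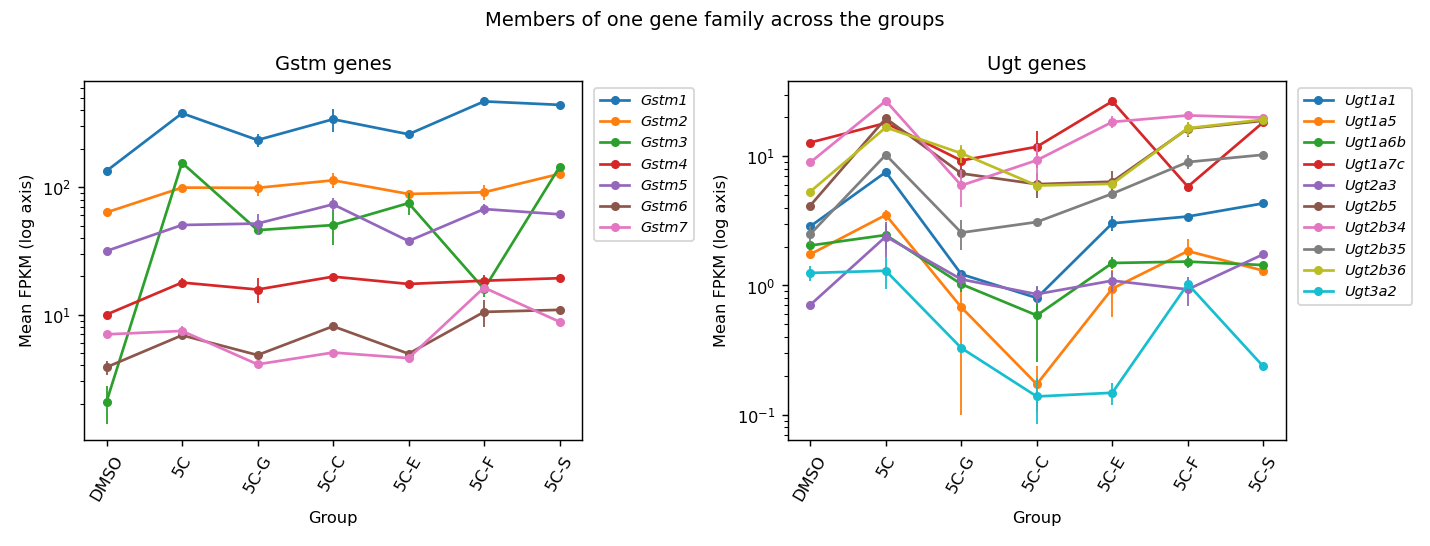
Mean FPKM (vertical log axis) of the 7 Gstm genes and of 10 Ugt genes in each group. Vertical lines span the libraries of a group, and lines join groups only to guide the eye. Ugt1a1 is lowest in 5C-C and Ugt1a7c in 5C-F, and Gstm3 is the Gstm gene with the widest range.

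Those 5 Ugt2 genes all lost their calls with the offset for GC content and length, which left Ugt2b34 at -0.69 and Ugt2b36 at -0.29 on the log2 scale and took the number of called genes from 17 to 8. The other losses were Sult1d1, Sult2a8, Sult2b1 and Gstp1. In 5C-G against 5C this offset cost 4 of the 12 calls, so 5C-C no longer had the largest number alone. Ugt2b34 also was not called without 5C-C B, and Ugt2a3 not without 5C A, 5C-C A or 5C-C B. Ugt2a3 was not called either by limma on log2(FPKM + 1) or when only the libraries of the 2 groups were fitted. Ugt1a1, Ugt1a5, Sult1e1, Gstm3, Mgst3 and Gsto1 were called under all 10 alternatives. Across 19787 genes, which are not independent replicates, Spearman's rho of the log2 fold change with GC content was 0.41 in this comparison, and the GC content of Ugt2b5 was 38.1% and that of Gstm3 53.0%.

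Of the sulfotransferases, Sult1e1 had 7.03 and 8.12 FPKM in 5C-C (-2.46 ± 0.25 SE, edgeR adjusted p = 5.83e-06) and Sult1d1 46.2 and 31.01 FPKM (-1.59 ± 0.25 SE, not called with the GC offset). Sult2a8 had 18 and 18 counts in 5C and 0 and 0 counts in 5C-C. Against a floor of 3 counts per library this puts it at least 6.8-fold lower, if each count is 1 fragment. Most low counts were even numbers, so a count may stand for less, which would lower this bound. The call of Sult2a8 was lost when any 1 of the 4 libraries was left out, and by limma on log2(FPKM + 1). Sult2b1, which sulfates cholesterol and hydroxysteroids, went the other way, from 0.294 and 0.198 FPKM in 5C to 0.887 and 1.15 FPKM in 5C-C (2.22 ± 0.57 SE, edgeR adjusted p = 0.00564). Its call was lost without 5C B and by limma on log2(FPKM + 1). Sult1a1 had 335 and 269 FPKM, above both 5C libraries, and 0.81 higher on the log2 scale (edgeR adjusted p = 0.00163), under the fold threshold.

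The higher glutathione transferases in 5C-C were Gsto1, the omega-class enzyme with dehydroascorbate reductase activity, at 74.1 and 59.3 FPKM against 26.3 and 29.0 FPKM in 5C (1.43 ± 0.17 SE, edgeR adjusted p = 2.9e-05), and Gstp1, the pi-class enzyme, at 222 and 289.5 FPKM against 116 and 118 FPKM (1.30 ± 0.23 SE, edgeR adjusted p = 0.000417, not called with the GC offset). Mgst3 rose to 23.6 and 29.8 FPKM (1.47 ± 0.25 SE). Gstm3 fell to 35.0 and 65.9 FPKM (-1.45 ± 0.30 SE, edgeR adjusted p = 0.0013).

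In 5C-C, 5 of 10 macrophage markers were higher than in 5C and 0 lower (648 to 1108 FPKM), and 3 of 8 hepatocyte markers (Alb, Tat and Apob) were lower and 0 higher (4910 to 5408 FPKM). Alb had a log2 fold change of -1.50 and Hnf4a of -0.22. Des was higher and Lrat and Reln were lower (stellate list 1338 to 1570 FPKM), and Krt19 of the cholangiocyte markers was higher (1852 to 2111 FPKM). Their part in the result was not tested.

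Leaving out ETC-1002, the AMPK activator, lowered 10 of the 51 genes and raised 0 (19.6% called, against 1.96% of all genes tested, 0.654% higher and 1.31% lower). The median log2 fold change was -0.61 against 0.01 over all genes. The lower genes were 5 UGTs (Ugt3a2, Ugt2b5, Ugt2b36, Ugt1a1 and Ugt2b35), 3 SULTs (Sult1e1, Sult1d1 and Sult1b1) and 2 GSTs (Gstp3 and Gsta3).

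Sult1e1 had 9.15 and 7.77 FPKM in 5C-E (log2 fold change against 5C -2.54 ± 0.25 SE, edgeR adjusted p = 1.01e-05), and it was also lower than in DMSO (-1.99). Ugt2b36 had 6.33 and 5.90 FPKM against 15.7 and 17.8 FPKM in 5C (-1.52 ± 0.22 SE, edgeR adjusted p = 0.000575). These were the 2 calls of the 10 that held under all 10 alternatives. Ugt2b5, at 7.76 and 4.96 FPKM (-1.70 ± 0.28 SE), and Sult1d1, at 55.4 and 38.4 FPKM (-1.54 ± 0.25 SE), were lost only without 5C-E B. Ugt3a2 had 0.177 and 0.119 FPKM (-3.20 ± 0.55 SE) and was not called without 5C B or 5C-E B.

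Gsta3, the most abundant of the 2 called glutathione transferases, had 35.1 and 27.2 FPKM in 5C-E against 67.6 and 57.6 FPKM in 5C (-1.08 ± 0.19 SE, edgeR adjusted p = 0.00315), a change close to the fold threshold that was lost without 5C A or 5C-E B. Gstp3 had 2.00 and 0.944 FPKM against 6.73 and 2.80 FPKM, also lost without 5C A or 5C-E B. Ugt1a1 had 3.43 and 2.63 FPKM (-1.38 ± 0.29 SE), near its DMSO level, and was lost without 5C A, 5C B or 5C-E B. Sult1b1 and Ugt2b35 were lost without any 1 of the 4 libraries, and without 5C-E B 2 of the 51 genes were called. With the offset for GC content and length, Gsta3, Sult1b1 and Ugt2b35 were not called either, and Spearman's rho of the log2 fold change with GC content was 0.32 across genes in this comparison. Gsta3, Gstp3, Ugt3a2, Sult1b1 and Ugt2b35 were not called by limma on log2(FPKM + 1). Gstp3, Sult1b1 and Ugt2b35 were also not called when libraries were scaled by total counts only. Gstm3, at 89.5 and 60.4 FPKM, lay under both 5C libraries but just missed the threshold (-1.12 ± 0.30 SE, edgeR adjusted p = 0.0512). Ugt1a7c had 28.6 and 24.7 FPKM, above both 5C libraries, and was not called (0.49 ± 0.25 SE, edgeR adjusted p = 0.386).

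No macrophage marker was called in 5C-E against 5C (394 to 501 FPKM), and 4 of 8 hepatocyte markers (Alb, Tat, Serpina1a and Ttr) were lower and 0 higher (3271 to 3790 FPKM). Alb had a log2 fold change of -2.03, larger in size than that of 8 of the 10 called genes, and the median of the hepatocyte markers was -1.05. The endothelial marker Kdr was higher, with a sum of its list of 21.8 to 23.4 FPKM against 9.45 to 10.96 FPKM in 5C, and Cdh5, Erg, Pecam1, Stab2 and Tek were under 1 FPKM. Of the stellate cell and fibroblast markers Des was higher and Reln lower (1626 to 1773 FPKM, against 1240 to 1259 FPKM in 5C). The part of these differences in the result was not tested.

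Forskolin, which raises cAMP, was left out in 5C-F. In 5C-F against 5C, 1 of the 51 genes was higher and 3 were lower (7.84% called, against 4.84% of all genes tested, 2.69% higher and 2.15% lower), with a median of 0.08 on the log2 scale, and 2 were called without 5C B, 7 by DESeq2 and 8 at a log2 threshold of 0.5. Among the GST genes 18 of 21 had a positive log2 fold change and the median was 0.52, and among the UGT genes 2 of 13 did, with a median of -0.58. Of the 10 named UGT genes 9 were negative, and 6 once GC content and length were offset.

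Gstm3 had 18.1 and 13.7 FPKM in 5C-F, the lowest level of any group with the cocktail or 4 of its compounds (log2 fold change against 5C -3.18 ± 0.32 SE, edgeR adjusted p = 5.73e-05). Gstm7, of the same cluster, rose, from 8.15 and 6.77 FPKM in 5C to 15.3 and 17.3 FPKM (1.23 ± 0.23 SE, edgeR adjusted p = 0.00352), and this call was lost without 5C B. Gstm1 had 435 and 506 FPKM and was not called (0.41 ± 0.21 SE). Ugt1a7c, a drug glucuronidating enzyme, fell from 18.9 and 17.3 FPKM to 6.13 and 5.50 FPKM (-1.53 ± 0.26 SE, edgeR adjusted p = 0.00181), under both DMSO libraries (13.4 and 12.1 FPKM).
Ugt1a1 had 3.54 and 3.30 FPKM (-1.04 ± 0.29 SE, edgeR adjusted p = 0.029), and its call was lost without any 1 of the 4 libraries, with the GC and length offset, and by limma on log2(FPKM + 1). In contrast to the other 3 tested removals, Sult1d1 (140.2 and 88.7 FPKM), Sult1e1 (36.7 and 25.6 FPKM) and Ugt2b5 (18.6 and 14.2 FPKM) were not called against 5C, and each of them was called higher in 5C-F than in 5C-G, in 5C-C and in 5C-E when these groups were tested directly.

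In 5C-F, 3 of 8 hepatocyte markers (Apoa1, Serpina1a and Ttr) were higher than in 5C and 0 lower (17370 to 21880 FPKM), and 8 of 10 macrophage markers were higher and 0 lower (864 to 1126 FPKM). Alb had a log2 fold change of 0.85. The cholangiocyte marker Krt19 was higher (3166 to 3423 FPKM for the list, against 1639 to 1977 FPKM in 5C, Cftr under 1 FPKM in both), and Col1a2 of the stellate cell and fibroblast markers was lower (798.6 to 881.1 FPKM). Their part in the result was not tested.

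The single library without Salidroside can be described only by its values. Of the 51 genes, 7 lay beyond 1 in log2 difference from the mean of 5C, 2 of them higher and 5 lower, against 15.4% of all genes (8.1% higher and 7.35% lower). On the log2(FPKM + 1) scale 0 of the 51 lay beyond 1. Ugt3a2 had 0.236 FPKM (difference -2.33), Ugt1a5 1.30 FPKM (-1.42), Sult1e1 23.5 FPKM (-1.01), Sult1c2 1.02 FPKM (-1.21) and Gsto2 1.18 FPKM (2.25). The other two, Ugt2b1 and Ugt2b37, had 0 and 16 counts. Gstm3 stayed at 144 FPKM, a difference of -0.12, and Ugt1a1 was at 4.32 FPKM, a difference of -0.82. None of these values has a replicate.

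**Figure D4:**
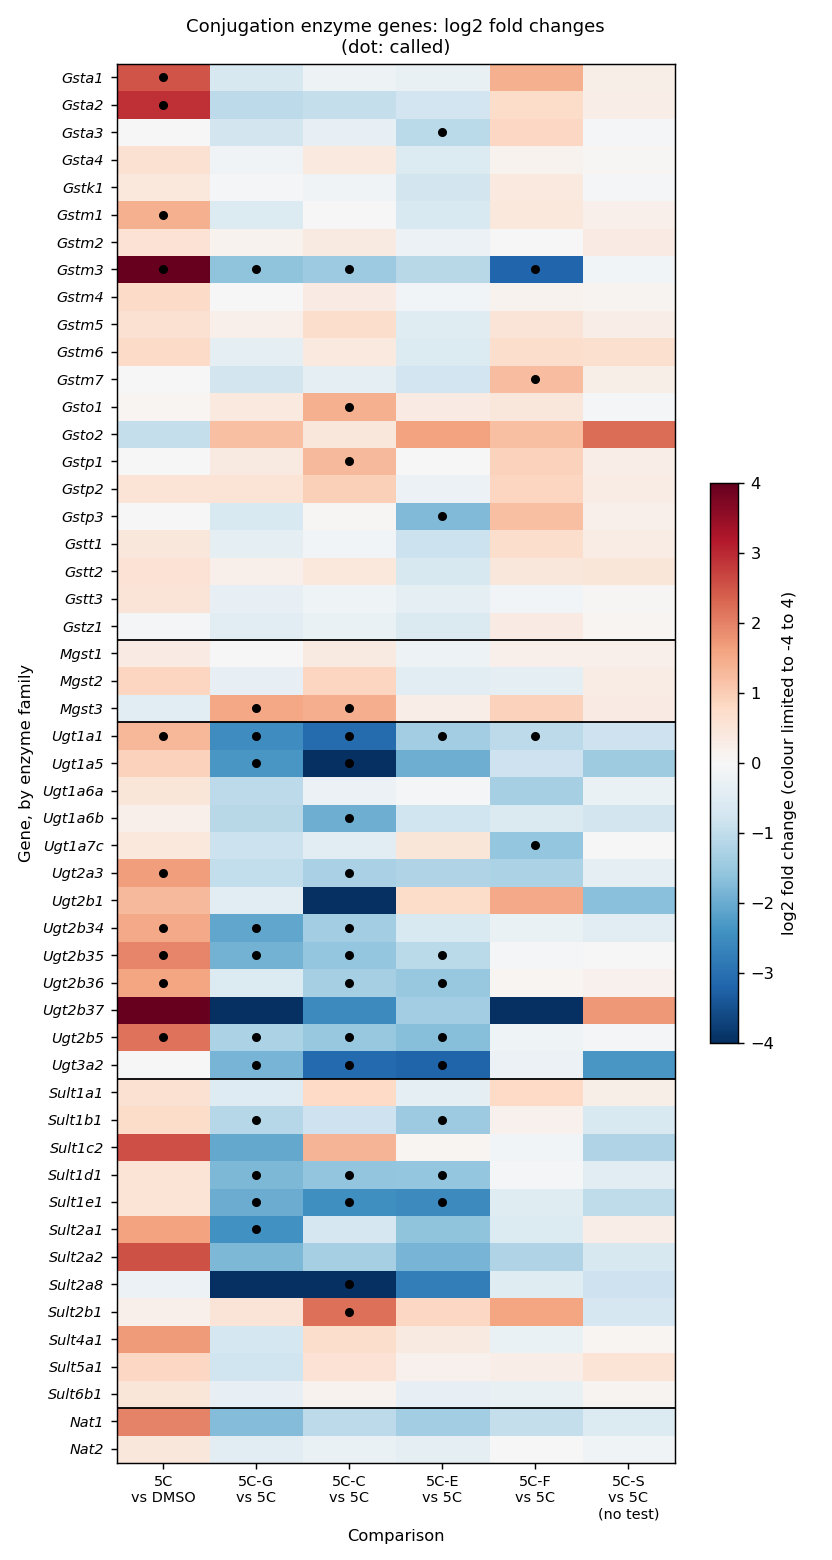
Log2 fold changes (colour, limited to -4 to 4) of all 51 genes, grouped by class, in 5C against DMSO and in each removal group against 5C. A dot marks a called gene, and the 5C-S column has 1 library and no test. In 5C-C against 5C 9 of 13 UGT genes are called lower.

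Setting the removal groups against one another shows where their effects on the same gene differed. Sult1a1 was higher in 5C-C (335 and 269 FPKM) and in 5C-F (322 and 308 FPKM) than in 5C-G (121 and 126 FPKM) and 5C-E (174 and 140.9 FPKM), with log2 differences from 1.17 to 1.32 in size. Ugt1a7c was higher in 5C-E than in 5C-F by 2.02 ± 0.26 (SE, edgeR adjusted p = 4.58e-05) and than in 5C-G by 1.34 on the same scale, and higher in 5C-C than in 5C-F by 1.08. Gstm3 was lower in 5C-F than in 5C-G, 5C-C and 5C-E, by 1.56, 1.74 and 2.06. Ugt1a1 was lower in 5C-G, and in 5C-C, than in 5C-E and than in 5C-F, and it was not called between 5C-G and 5C-C.

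Counting all members, 5C-G had 0 genes higher and 5 lower than 5C-C (of all genes tested 4.14% were higher, 3.21% lower and 7.36% called in all). It had 1 higher and 3 lower than 5C-E (all genes 5.19%, 4.12% and 9.31%), and 1 higher and 16 lower than 5C-F (3.76%, 4.27% and 8.03%). In 5C-C, 8 were higher and 2 lower than in 5C-E (6.33%, 7.34% and 13.7%), and 3 higher and 12 lower than in 5C-F (4.92%, 5.26% and 10.2%). In 5C-E, 2 were higher and 16 lower than in 5C-F (4.29%, 4.45% and 8.74%), among the lower Gsta3 with 35.1 and 27.2 against 100.3 and 105.7 FPKM (-1.89 ± 0.19 SE, edgeR adjusted p = 4.88e-06) and Gstm7 with 4.34 and 4.80 against 15.3 and 17.3 FPKM (-2.003 ± 0.23 SE). Both genes were highest in 5C-F, and their libraries did not overlap between these groups.

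Against the solvent, the removal groups had different numbers of called genes. In 5C-G, 4 of the 51 were higher and 4 lower than in DMSO (of all genes tested 3.11% were higher, 2.72% lower and 5.83% called in all). In 5C-C 19 were higher and 7 lower (all genes 10.4%, 11.7% and 22.1%), in 5C-E 3 and 4 (2.41%, 3.68% and 6.09%), and in 5C-F 16 and 1 (3.18%, 4.22% and 7.4%). Leaving out 1 library moved these counts to between 2 (without DMSO A) and 14 (without 5C-G A) for 5C-G, with 5 without DMSO B and 3 without 5C-G B, to 15 for 5C-C without 5C-C B and to 3 for 5C-E without 5C-E B. With limma on log2(FPKM + 1) 3 genes were called in 5C-G, 13 in 5C-C and 2 in 5C-E, whereas a log2 threshold of 0.5 gave 15 in 5C-G and 13 in 5C-E. With the GC and length offset 5 were called for 5C-G. These comparisons share the DMSO libraries with each other and with the first comparison. Gstm3 was higher than DMSO in each of the 4 groups, by 4.51, 4.68, 5.01 and 2.95 on the log2 scale. In 5C-C, 12 of the 21 GST genes were higher and 0 lower than in DMSO, with Gsta4, Gstm1, Gstm4, Gstm5, Gstm6, Gsto1, Gstp1, Gstp2 and Gstt2 among them, while 4 of 13 UGT genes (Ugt1a1, Ugt1a5, Ugt1a6b and Ugt3a2) were lower and 0 higher. In 5C-F, 10 of 21 GST genes and 4 of 13 UGT genes (Ugt2b5, Ugt2b34, Ugt2b35 and Ugt2b36) were higher.

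The class sums summarise the removals. The UGT sum was 46.8 and 33.8 FPKM in 5C-G and 44.6 and 33.8 FPKM in 5C-C, spanning the DMSO values (rescaled to the same FPKM total in every library, 5C-C lay under both DMSO libraries), 76.8 and 63.4 FPKM in 5C-E, and 84.2 and 71.0 FPKM in 5C-F, and all 4 groups lay under both 5C libraries. The SULT sum was 179.7 and 166 FPKM in 5C-G and 248 and 195 FPKM in 5C-E, under both 5C libraries, but 401 and 322 FPKM in 5C-C and 510 and 432 FPKM in 5C-F. After that rescaling the SULT sum of 5C-C also lay under both 5C libraries (1128 and 834 against 1248 and 1242), and that of 5C-F above both. In 5C-C that sum was carried by Sult1a1, without which it was 65.8 and 53.0 FPKM against 192 and 188 FPKM in 5C. The GST sum of 5C-C, 1076 and 1424 FPKM, was 1.04 times that of 5C, and it lay under both 5C libraries once every library was rescaled to the same FPKM total (3025 and 3686 against 4013 and 3705), so its direction depends on the scaling.

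Across the 7 groups together, 36 of the 51 genes had an adjusted p under 0.05 in the F test of the same edgeR fit, 70.6%, against 42.7% of all genes tested. By class these were 18 of 21 GST, 3 of 3 MGST, 8 of 13 UGT, 7 of 12 SULT and 0 of 2 NAT genes. Over the 6 groups with 2 libraries, the mean FPKM was highest in 5C for 11 of the 13 UGT genes and for 2 of the 21 GST genes, of which 11 were highest in 5C-F and 7 in 5C-C. With every library rescaled to the same FPKM total, an alternative chosen after seeing the data, 5C was highest for 10 UGT and 4 GST genes, 5C-F for 12 GST genes and 5C-C for 3, so the order of 5C and 5C-C among the GST genes turned with the scaling.

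Genes that supply the cosubstrates were followed beside the enzymes. For this and the following lists, the shares of all genes tested serve for comparison. In 5C against DMSO 2.89% were lower and 1.66% higher. Against 5C these shares were 5.64% and 7.47% in 5C-G, 10.5% and 9.65% in 5C-C, 1.31% and 0.654% in 5C-E, and 2.15% and 2.69% in 5C-F. No list was tested as a set. Of 10 glutathione supply genes, 1 was lower (Chac1, which degrades glutathione, -1.01) and 0 higher in 5C against DMSO. In 5C-G against 5C 3 were lower and 0 higher, and in 5C-C against 5C 2 were lower and 0 higher. Gclc, the catalytic subunit of the first enzyme of glutathione synthesis, had 32.1 and 29.0 FPKM in 5C, 10.8 and 7.33 FPKM in 5C-G and 12.1 and 8.26 FPKM in 5C-C (log2 fold changes -1.63 ± 0.19 and -1.42 ± 0.19 SE), and Slc7a11, the cystine importer, fell by 1.73 and 1.24. None was called in 5C-E, and in 5C-F Cbs, which makes cystathionine, rose from 2.97 and 2.85 FPKM to 8.11 and 10.7 FPKM (1.79 ± 0.22 SE).

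The list for UDP-glucuronic acid supply and glucuronide hydrolysis held 5 genes. Gusb, the lysosomal enzyme that cleaves glucuronides, had 66.4 and 65.7 FPKM in DMSO and 23.2 and 24.4 FPKM in 5C (-1.55 ± 0.16 SE, edgeR adjusted p = 4.5e-06), 73.0 and 75.1 FPKM in 5C-G and 44.4 and 45.2 FPKM in 5C-F, higher than 5C in both. In 5C-C, Slc35d1, which carries UDP-glucuronic acid into the endoplasmic reticulum, was lower (-1.14 ± 0.22 SE). No other gene of this list was called in the 5 tests. Gusb is also abundant in macrophages, whose markers moved in the same direction in each of these 3 comparisons, and their part in its result was not tested.

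Of 11 genes listed for sulfate supply, sulfate transfer and sulfate ester hydrolysis, 9 were in the table, and none of the 9 encodes a sulfatase. Papss2, which makes PAPS, had 30.1 and 26.5 FPKM in 5C, 9.78 and 8.71 FPKM in 5C-G and 12.2 and 7.77 FPKM in 5C-C (-1.48 ± 0.20 and -1.35 ± 0.20 SE). Slc26a1, a sulfate transporter, fell in 5C-C (-2.70) and in 5C-E (-1.75). Tpst2, a tyrosine sulfotransferase of the Golgi, was higher in 5C-G (1.02) and Slc35b2, the Golgi PAPS transporter, in 5C-C (1.11). None of the 9 was called in 5C against DMSO or in 5C-F against 5C.

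Other conjugating transferases (10 genes) moved in both directions. In 5C against DMSO 2 were higher and 0 lower, Inmt, a methyltransferase (1.73), and Baat, which joins bile acids to glycine or taurine (1.29). Gnmt, the glycine methyltransferase, had 114 and 139 FPKM in 5C, 40.9 and 57.1 FPKM in 5C-G, 17.4 and 18.3 FPKM in 5C-C and 21.9 and 13.8 FPKM in 5C-E, and was called lower in all 3 (-1.22, -2.66 and -2.90). Baat and Glyat were also lower in 5C-G and Inmt in 5C-C and 5C-E. In 5C-C the methyltransferase Nnmt was higher, by 1.55. None was called in 5C-F against 5C.

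Among 11 transporters of conjugates, Slco1b2, which takes up organic anions such as bilirubin conjugates from blood, had 3.84 and 4.08 FPKM in DMSO and 14.3 and 11.9 FPKM in 5C (1.65 ± 0.37 SE, edgeR adjusted p = 0.0101), and was the only one called there. It was lower than in 5C in 5C-G (2.11 and 0.633 FPKM), 5C-C (0.657 and 0.463 FPKM) and 5C-E (2.18 and 1.29 FPKM), by -3.17, -4.40 and -2.98. Abcc2, the canalicular pump for glucuronides and glutathione conjugates, had 10.7 and 9.56 FPKM in 5C, 3.40 and 2.54 FPKM in 5C-G and 3.71 and 2.85 FPKM in 5C-C (-1.64 ± 0.18 and -1.46 ± 0.18 SE). The list had 4 genes lower in 5C-G, 3 in 5C-C and 1 in 5C-E with 0 higher, and 1 higher in 5C-F (Abcc4, 1.23) with 0 lower.

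Of 15 regulators of these enzymes, 1 was lower (Cebpa, -1.04) and 0 higher in 5C against DMSO. In 5C-G against 5C 4 were lower and 0 higher. Ahr, the aryl hydrocarbon receptor, fell by 1.93, Nr1i2 (PXR) by 1.32, Ppara by 1.27 and Hnf4a by 1.05 on the log2 scale. In 5C-C Ahr (-1.07) and Ppara (-1.43) were lower, 2 of the 15, near the 10.5% of all genes tested. No regulator was called in 5C-E or 5C-F. Nfe2l2, which encodes NRF2, was called in none of the 5 comparisons, with 65.1 and 62.9 FPKM in 5C and 55.6 and 57.7 FPKM in DMSO. Nr1i3 (CAR) reached at most 0.196 FPKM, in 5C A.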

How the data were processed

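The authors extracted RNA from the cultures, prepared libraries with a NEBNext Ultra kit and sequenced them as paired-end reads. The submitters' processing notes name the build GRCm39 and the tools featureCounts, Subread and DESeq2, without versions. Strand, annotation release and the treatment of multiply mapped reads are not given in the sources used here. The deposited table of counts holds whole, unnormalized counts per gene, and the deposited FPKM table holds the authors' counts divided by gene length and library total. Between 75.36% and 80.03% of the counts from 2 to 21 were even numbers, so a count may stand for less than 1 fragment, which was not tested. The number of unused columns was 0. Groups came from the labels. Column names give the group only, so A and B follow column order and pair nothing across groups.

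The members, the lists of related genes and the markers were chosen with earlier results of these data known. Counts were fitted with edgeR 4.0.16 in R 4.3.3 (TMM factors, filterByExpr with a minimum count of 10, glmQLFit and glmQLFTest, all 13 libraries, group means, 6 residual degrees of freedom, common biological coefficient of variation 0.261), and p-values were adjusted over 19884 genes in each comparison. The study's methods name DESeq, in whose place edgeR was used. The scripts were tested on simulated data. Genes to be named were up to 8 called members per direction and comparison with the largest change and no overlap between libraries, the most abundant member of each subfamily, Ugt1a1, and up to 2 called genes of each related list. Other genes were named after their values were seen. Alternatives were DESeq2 1.42.0, limma 3.58.1 on log2(FPKM + 1), no TMM factors, no count filter, only the 2 groups compared, an offset for GC content and length, a log2 threshold of 0.5, and leaving out each library. A floor of 3 counts per library, which covers counting error only, was used for a group at 0. The symbols are those of the files. The gene the files call Ugt3a2 is called Ugt3a1 in GENCODE release M39. Protein sequences were not used here. A few genes of the related lists and all but 1 of the promoter motifs searched are not reported here, and the counts of those lists leave them out.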

Additional observations from a re-analysis of the deposited data

How the results depend on the processing

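With 2 libraries a group, a spread rests on few values, and low genes (Sult2a8, Ugt2b1, Ugt2b37) are limited by their counts. Over 1797 values of named genes under the alternatives, 92 lost and 29 gained a call. The sign differed from that reported in 96, and all 96 belonged to genes not called in that comparison, so that 0 called values changed direction. Of 53 calls in the 5 tested comparisons with 5C, 22 held under all alternatives run on them. The offset for GC content and length left 8 of the 17 genes called in 5C-C against 5C and 5 of the 8 in 5C-G against DMSO. DESeq2 called 7 in 5C-F against 5C, in place of 4. limma called 5 in 5C-E against 5C, 3 in 5C-G against DMSO, 13 in 5C-C against DMSO and 2 in 5C-E against DMSO. The log2 threshold of 0.5 gave 8 in 5C-F against 5C, 15 in 5C-G against DMSO and 13 in 5C-E against DMSO.

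Leaving out 1 library gave 6 to 9 called genes in 5C against DMSO (6 without DMSO A), 8 to 12 in 5C-G against 5C, 13 to 16 in 5C-C against 5C, 2 to 8 in 5C-E against 5C (2 without 5C-E B, 5 without 5C A, 6 without 5C B) and 2 to 4 in 5C-F against 5C (2 without 5C B). Against DMSO it gave 2 to 14 for 5C-G (14 without 5C-G A, 2 without DMSO A), 15 to 26 for 5C-C (15 without 5C-C B), 3 to 7 for 5C-E (3 without 5C-E B) and 12 to 14 for 5C-F. A lone library was then assumed to vary like the other groups.

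For 5C-S, where log2(FPKM + 1) is used, 0 genes lay beyond 1. Without the most abundant member, the log2 ratio of summed FPKM of 5C to DMSO was 0.73 for GST (0.94 with it), 2.10 for NAT (0.64 with it) and -0.16 for MGST (0.37 with it). In each case the cause was not tested. No paired analysis was possible because the columns cannot be matched to replicate numbers of the labels.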
